A study of Mus musculus with 20 samples.

Results

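Time point 9 was measured on 2 two-colour spotted arrays, titled Timepoint9 and Timepoint9r, which are called the first and the second array here. Each deposited value was taken as a log2 ratio between RNA of the glutamine-varied and of the constant-glutamine flasks, each array was centred on its own median, and the probes of a gene were averaged. The genes described are those with a value on both arrays. There were 4503 of them, 3985 with a gene symbol and 518 known only by a probe number, out of 11771 genes with a value on any of the 20 arrays of the study. The cells were Hepa1-6, an established mouse hepatoma line, grown to confluency in flasks with DMEM medium holding 25 mM glucose, penicillin and streptomycin, and 10% CPSR-3, a serum replacement. Control flasks had 4 mM glutamine throughout. In the varied flasks glutamine was absent for the first 24 h, restored to 4 mM until 48 h, absent again until 72 h and restored until the end at 96 h. The medium of control and varied flasks was exchanged at the same times, so both share the exchange itself. The study numbers its samplings 1 to 11, and the labels used here give neither the hour nor the glutamine level of time point 9. They also do not say whether the second array is another flask or a repeat hybridisation of the same RNA, so p-values measure only the spread between arrays, which may be technical.

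The likely direction of every ratio is varied over constant, because the labels put RNA of the varied flasks in Cy5 and control RNA in Cy3. The sign and the base of the logarithm of the deposited values are not stated, and no array has the dyes swapped. For a single time point, a constant dye bias of a gene and a difference between flasks therefore cannot be told apart. In a difference between time points a constant bias cancels. One array of time point 4 carries a label that describes its control RNA as grown without glutamine, and it was treated as a control array like the others.

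Glutamine is the most abundant free amino acid in culture medium and supplies nitrogen for nucleotides and other amino acids, and carbon for the tricarboxylic acid cycle. Shortage of an amino acid activates the kinase GCN2 and the transcription factor ATF4, which raises genes of amino acid import and synthesis and the stress factor Ddit3. Misfolded protein in the endoplasmic reticulum raises chaperones such as Hspa5 through the unfolded protein response, whose ATF6 branch reads the endoplasmic reticulum stress element, a promoter motif.

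Of 17280 probes, the first array gave 8269 values (47.9%) and the second 4796 (27.8%), with 4607 probes measured on both. The spread of every test came from the 14 arrays of time points 1, 2, 3, 4, 7, 8 and 9. Time points 5 and 11 had 1 array each. At time points 6 and 10 the arrays of a pair correlated across genes with a Pearson r of only 0.05 and -0.01, against 0.52 to 0.69 at the 6 time points used beside time point 9, so time points 6 and 10 were left out. The standard error of a mean at time point 9 had a median of 0.139 on the log2 scale, and the smallest mean that passed the test was 0.385 in size. In limma a gene's spread came mostly from all genes together, with 228 degrees of freedom against a median of 7 of its own. An SE or p-value here thus says little about the gap between a gene's own 2 arrays.

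The genes of both arrays spread moderately around their medians. The mean log2 ratio of a gene had a median of 0.04, and most genes lay between -0.45 and 0.39, the ends left by the outer 5% on each side. A mean above 0.5 was found for 67 genes and one below -0.5 for 154, and the means of 2 genes exceeded 1 and those of 8 were under -1. Both arrays exceeded 0.5 for 29 genes and both were under -0.5 for 90. The tail was longer on the low side.

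The arrays agreed in part. Across the 4503 genes, which are not independent replicates, Pearson's r was 0.60 and Spearman's rho 0.55. Both arrays were above their median for 1677 genes (37.2%) and both below for 1336 (29.7%), 1374 genes had opposite signs and 116 had a value of exactly 0 on an array. The SD of the difference between arrays was 0.261, against SDs of 0.311 and 0.268 over the genes of the first and second array, and 233 genes (5.17%) differed by more than 0.5. On the first array the values moved with probe number. Medians of blocks of 540 consecutive numbers ran from -0.24 to 0.28 and accounted for 20.4% of its variance, against 4.64% on the second, where they ran from -0.17 to 0.07.

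**Figure D1:**
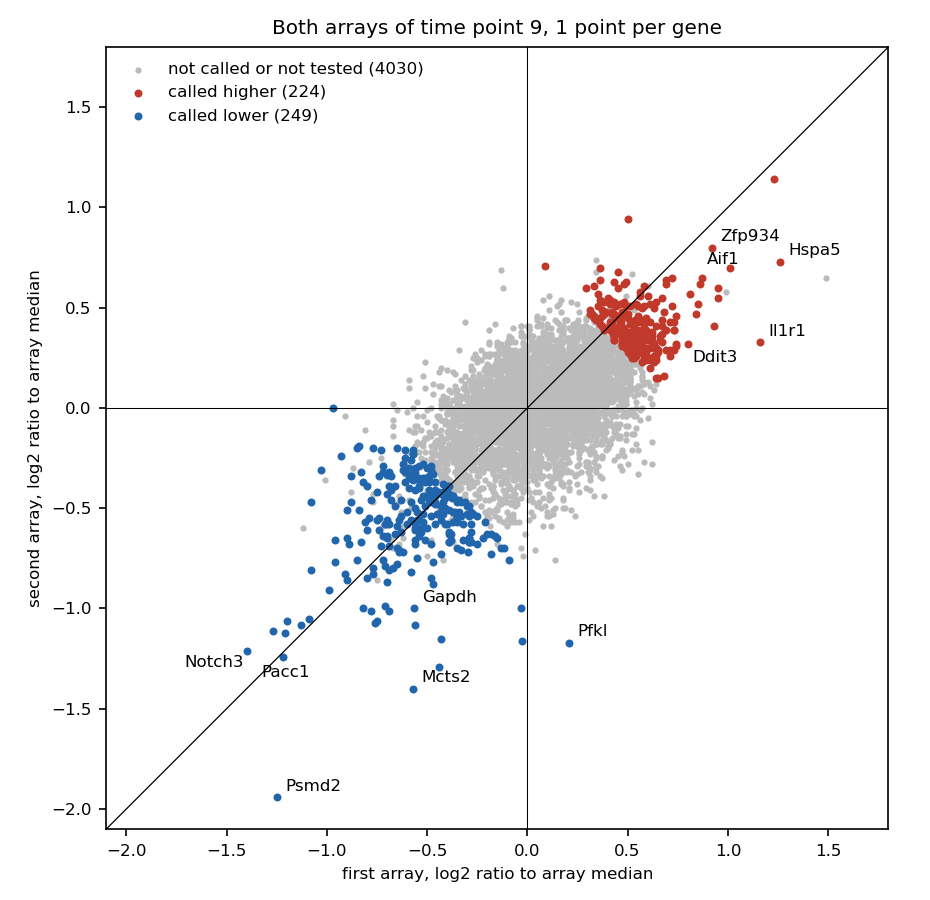
Log2 ratio of each of the 4503 genes on the first (horizontal) and second (vertical) array of time point 9, each relative to its array's median, with the line of equal values. The 224 genes called higher (red) and 249 called lower (blue) have 1 sign on both arrays except Mok at -0.97 and 0 and Pfkl at 0.21 and -1.17, and the low side reaches Psmd2 at -1.25 and -1.94.

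Against the array median, 473 of 4037 genes tested (11.7%) passed limma at a Benjamini-Hochberg adjusted p of 0.05. At an unadjusted p under 0.05 there were 1064 genes (26.4%). The test covered genes with a value on both arrays and on at least 10 of the 14 arrays. Higher ratios were called for 224 genes (5.55%), 192 of them with a symbol, with a median of 0.46 or 1.37-fold. Lower ratios were called for 249 genes (6.17%), 219 with a symbol, with a median of -0.51 or 1.42-fold, and 130 of these were beyond -0.5 against 59 beyond 0.5 on the high side. Both arrays had 1 sign for all 224 higher genes and 247 of 249 lower genes. The exceptions were Mok at -0.97 and 0, and Pfkl at 0.21 and -1.17. In 75.0% of the higher genes and 50.2% of the lower ones the first array gave the larger size. The same share over all genes was not counted, and the first array had the wider spread over all genes (SD 0.311 against 0.268).

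These counts rest on the choice of arrays and scale. With all 20 arrays in the fit, limma called 0 genes higher (330 at an unadjusted p under 0.05) and 1 lower, the unnamed probe number 13034 at -1.27 and -1.11 (adjusted p = 0.0465). With the 2 arrays of time point 9 alone, 21 genes were called higher and 79 lower. Without centring, 1672 were called higher and 85 lower, since the median over all genes then stood at 0.285, and after quantile normalization of all 20 arrays 185 were higher and 122 lower. Changes below are relative to the array median.

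The highest called gene with a symbol was Hspa5, which encodes BiP, the main Hsp70 chaperone of the endoplasmic reticulum. It read 1.26 on the first array and 0.73 on the second. Both arrays were clearly above 0, and the mean of 0.995 (SE 0.149), or 1.99-fold, passed limma with an adjusted p of 5.75e-08. Zfp934, a zinc finger protein, read 0.92 and 0.80 (mean 0.86, SE 0.139, adjusted p = 5.27e-07), and its relative Zfp935 read 0.69 and 0.62. Rfxank, a subunit of the RFX complex that drives MHC class II genes, read 0.87 and 0.65. Ndc80, part of the outer kinetochore, read 0.86 and 0.62. The arrays of the zinc finger proteins, Rfxank and Ndc80 were closer to each other than those of Hspa5. They were furthest apart for Il1r1, the signalling receptor for interleukin 1, at 1.16 and 0.33. 1810009A15Rik read 0.50 and 0.94.

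The small calcium-binding proteins Aif1 and S100b were both higher. Aif1 read 0.81 and 0.57, and S100b 0.69 and 0.64. The transcription factor Nfia, a member of the nuclear factor I family, read 0.67 and 0.55. Cdipt, the enzyme that makes phosphatidylinositol, read 0.72 and 0.51, and 6530415H11Rik read 0.72 and 0.65. These 5 genes rose by 1.53-fold to 1.61-fold, and limma's adjusted p ran from 8.40e-05 for Aif1 to 0.000769 for Nfia. The highest value of all belonged to probe number 13474, which has no symbol here, at 1.23 and 1.14. Anxa6, a calcium-dependent membrane-binding protein, read 1.49 and 0.65 and exceeded Hspa5, but it had values on 9 of the 14 arrays and was not tested.

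The lowest gene was Psmd2, a subunit of the regulatory particle of the proteasome, at -1.25 and -1.94. Its mean of -1.60 (SE 0.149), or 3.02-fold lower, had the smallest adjusted p of the comparison in limma, 2.33e-18. That SE came mostly from the spread of all genes, although the arrays of Psmd2 itself read -1.25 and -1.94. Notch3, a receptor of the Notch pathway, read -1.40 and -1.21 (mean -1.31, SE 0.139, adjusted p = 1.15e-14). Pacc1, a chloride channel opened by protons, read -1.22 and -1.24. RefSeq lists 3000002C10Rik, which read -1.21 and -1.12, as a transcribed pseudogene, so its probe may also bind the transcript of a related gene. All of these lay below -1 on both arrays.

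Cit, the citron kinase of cytokinesis, read -1.20 and -1.06, and Copz2, a coatomer subunit of vesicle coats, -1.13 and -1.08. Ppp1ca, a catalytic subunit of protein phosphatase 1, read -1.09 and -1.05. The arrays of these genes differed by 0.14 or less. Acrbp, the acrosin-binding protein, read -0.99 and -0.91. Mroh3 read -1.08 and -0.81, Ms4a6d -0.82 and -1.0, and Dlg4, a scaffold protein also called PSD-95, -0.75 and -1.06. Mcts2 was less even, at -0.57 and -1.40.

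**Figure D2:**
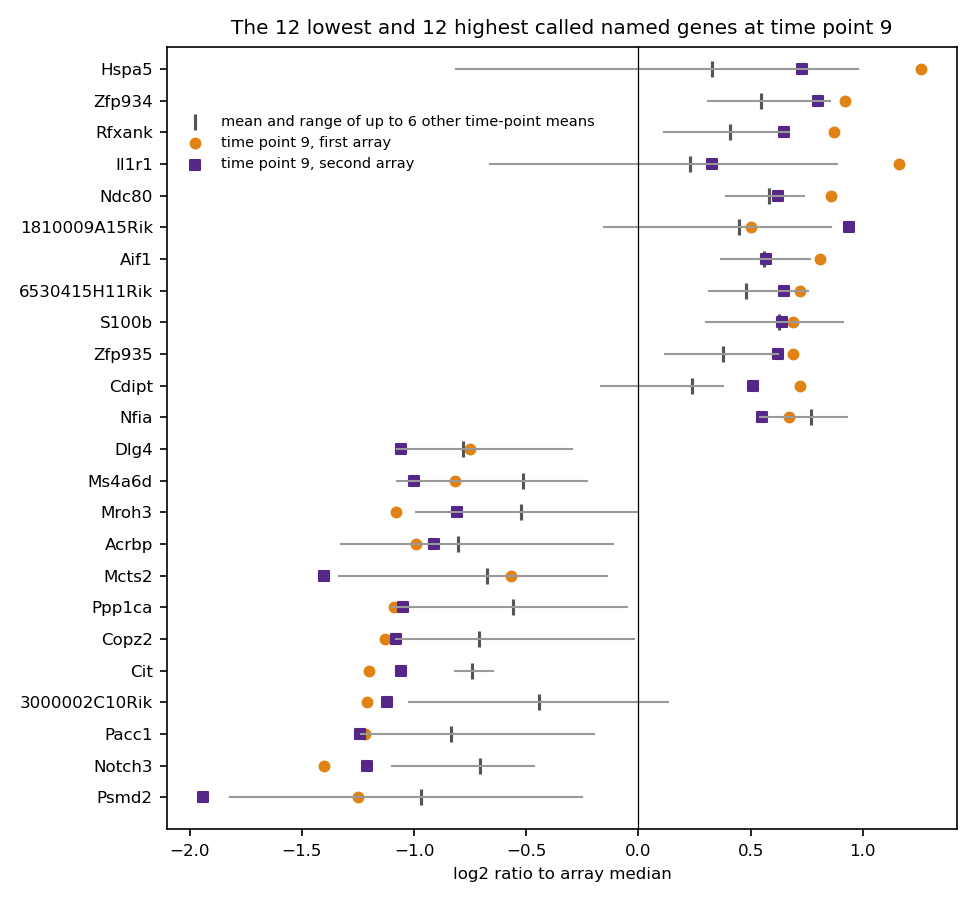
Log2 ratio to the array median of the 12 highest and 12 lowest called genes with a symbol, on the first (orange circle) and second (purple square) array of time point 9, with the mean (tick) and range (grey line) of the means of up to 6 other time points. Nfia lies within its range while both arrays of Notch3, at -1.40 and -1.21, lie below theirs.

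Most of these genes stood on the same side at other time points. For 8 of the 12 highest genes all 6 other time-point means were above 0, and for 10 of the 12 lowest every other mean measured was below 0. The share of such genes over all genes tested was not counted, so this is no trait of the named genes. Nfia was no higher at time point 9 (mean 0.61) than elsewhere, where its means ran from 0.54 to 0.93. S100b had other means from 0.30 to 0.91, around its 0.67. Hspa5 was unlike them, with other means from -0.82 to 0.98.

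Whether time point 9 differed from the rest was tested as its mean minus the mean of the 6 other time-point means. Of 3581 genes with a value at all 7 time points, 3 passed (0.0838%) in limma, 1 higher (0.0279%) and 2 lower (0.0559%), and 352 had an unadjusted p under 0.05. Of the genes called against the array median, 212 of the higher and 192 of the lower ones could be tested in this way.

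Hspa5 was the gene called higher. Time point 1 gave 0.49 and -0.10, time point 2 gave 0.64 on both arrays, time point 3 gave 0.96 and 0.48, and time point 4 gave 0.85 and 1.11. Both arrays of time point 7 were low, with -0.66 and -0.97, and those of time point 8 disagreed, with -0.48 on the first and 1.0 on the second. Time point 9, at 1.26 and 0.73, overlapped with time points 3, 4 and 8 and lay above time points 1, 2 and 7. The difference from the 6 others was 0.67 (SE 0.158, adjusted p = 0.0430 in limma). Over 16 alternatives it ran from 0.40 to 1.23 and passed in 6. Without the first array of time point 9 it was 0.40 (adjusted p = 0.996) and without time point 7, the only one with a negative mean, 0.44 (adjusted p = 0.178). It was also not called without time point 1, without time point 2, or under 6 other alternatives, among them centred blocks, no centring and both quantile normalizations.

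The promoter of Hspa5 is shown with that of Creld2, a second endoplasmic reticulum protein, because both hold the endoplasmic reticulum stress element and their ratios differed at time point 9. The capitals mark the motif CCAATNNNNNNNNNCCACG or, on the other strand, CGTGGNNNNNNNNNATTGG, in the 250 bases before the start of the gene, from RefSeq on build GRCm38.p6. The Hspa5 window is chr2:34771840-34772089 on the plus strand, with the motif starting 65 bases before the gene start, and that of Creld2 is chr15:88819396-88819645 on the plus strand, with the motif in its reverse form.
Hspa5: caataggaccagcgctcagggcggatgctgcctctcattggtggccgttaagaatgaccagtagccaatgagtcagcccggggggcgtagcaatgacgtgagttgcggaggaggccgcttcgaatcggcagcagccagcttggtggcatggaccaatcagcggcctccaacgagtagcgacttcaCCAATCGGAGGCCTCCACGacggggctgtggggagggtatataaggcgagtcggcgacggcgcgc
Creld2: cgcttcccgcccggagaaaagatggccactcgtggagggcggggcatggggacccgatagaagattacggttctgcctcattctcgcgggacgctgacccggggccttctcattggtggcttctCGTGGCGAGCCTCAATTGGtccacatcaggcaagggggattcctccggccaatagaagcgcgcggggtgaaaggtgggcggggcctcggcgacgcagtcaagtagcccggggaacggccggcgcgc
Either form was present in 37 of 32851 promoters (0.113%). They belong to 35 genes, of which 8 were measured on both arrays. Hspa5 read 1.26 and 0.73. Creld2 read 0.32 and -0.04, Pdia6, a disulfide isomerase, 0.22 and -0.14, and Derl3, which helps to move misfolded protein out of the endoplasmic reticulum, 0.08 and -0.09. Besides Hspa5, the test against the median called Tdrd9 higher (0.63 and 0.50) and Ptgdr2 lower (-0.69 and -0.69). Acacb and Xlr3c were not called. A match to these letters is a description and no evidence of binding.

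The genes called lower against the other time points were 3000002C10Rik and probe number 10897. 3000002C10Rik read 0.50 and -0.24 at time point 1, lay between -0.13 and -0.40 at time points 2, 3 and 7, read -0.76 and -0.92 at time point 4, and read -1.09 and -0.96 at time point 8. At time point 9, with -1.21 and -1.12, both arrays were below every array of those time points. The difference from the 6 others was -0.72 (SE 0.149, adjusted p = 0.00816 in limma), while that from time point 8 was -0.14 (adjusted p = 0.978). Probe 10897 read -1.08 and -0.47 at time point 9, with a difference of -0.66 (adjusted p = 0.0333 in limma), which became -0.36 without the first array (adjusted p = 0.996). For 3000002C10Rik the adjusted p was 0.601 without the first array and 0.1 without the second. Neither gene was called without time point 1 or without time point 2. Notch3 was lower than at any of the 6 time points, whose arrays ran from -0.33 to -1.15, with a difference of -0.60 that missed the threshold (SE 0.149, adjusted p = 0.0662 in limma).

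Leaving out time point 8 raised the count against the rest to 6 higher and 23 lower. It also let in genes without a value at time point 8, which the main comparison could not test. Apart from 3000002C10Rik (adjusted p = 0.000467), every adjusted p in limma was 0.0458 or 0.0486, just under the threshold. Of the 23 lower genes, 15 had a value at time point 8, and 14 of those had a time point 8 mean of the same sign. Of the 6 higher genes 5 had a value there, and 3 of those had the same sign. The share of equal signs was not counted over all genes. Fgb, a chain of fibrinogen, had a mean of -0.65 at time point 9 and -0.61 at time point 8. Gapdh had -0.78 and -0.75, and Plxnb2, a receptor of semaphorins, -0.75 and -0.68. In others the means were unlike, as in Edf1, a transcriptional coactivator, at -0.67 and -0.27, Zswim8 at -0.61 and -0.12, and probe 10897 at -0.78 and -0.08. These genes were chosen after their values were seen. Without time point 1 or without time point 2 the counts were 0 and 0 (354 and 339 genes at an unadjusted p under 0.05).

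Against time point 8, the preceding time point with 2 arrays, 7 of 3688 genes passed (0.19%) in limma, 0 higher (125 at an unadjusted p under 0.05) and 7 lower. Pacc1 read -0.38 and -0.02 at time point 8 and -1.22 and -1.24 at time point 9, a difference of -1.03 (SE 0.197, adjusted p = 0.000409). Ppp1ca read 0.05 and -0.15, then -1.09 and -1.05, a difference of -1.02 with the same adjusted p. Gdf1, a growth factor of the TGF-beta family, read 0.56 and 0.69, then -0.40 and -0.39, also a difference of -1.02. In none of these did the arrays of the time points overlap, but the same test had picked them. The share of genes without overlap among all tested was not counted.

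Copz2 had 1 array at time point 8, at -0.02, and differed by -1.09 (SE 0.242, adjusted p = 0.00831 in limma). That test assumes that the lone array varies like the arrays of the other time points. Acrbp read 0.08 and -0.31 at time point 8 and differed by -0.84 (adjusted p = 0.0167). The unnamed probes 13598 and 17148 differed by -0.87 and -0.82. Pacc1, Ppp1ca, Copz2 and Acrbp had been below -0.2 on every array of time points 1 to 4. Gdf1 had no such history, with arrays from -0.59 to 0.44 at time points 1 to 4. At time point 8 no array of Ppp1ca or Copz2 was below -0.2, while Pacc1 and Acrbp each still had 1 array below it. Without the first array of time point 8, 3 genes were called lower, and Ppp1ca, Acrbp and both probes were not among them, while Copz2 had no value left there. Without the second, Pacc1 and both probes were not called. Without the first array of time point 9 Acrbp and Copz2 lost their calls, and without the second Acrbp and both probes, with probe 17148 at -0.39. Without time point 1, 3 genes were called.

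**Figure D3:**
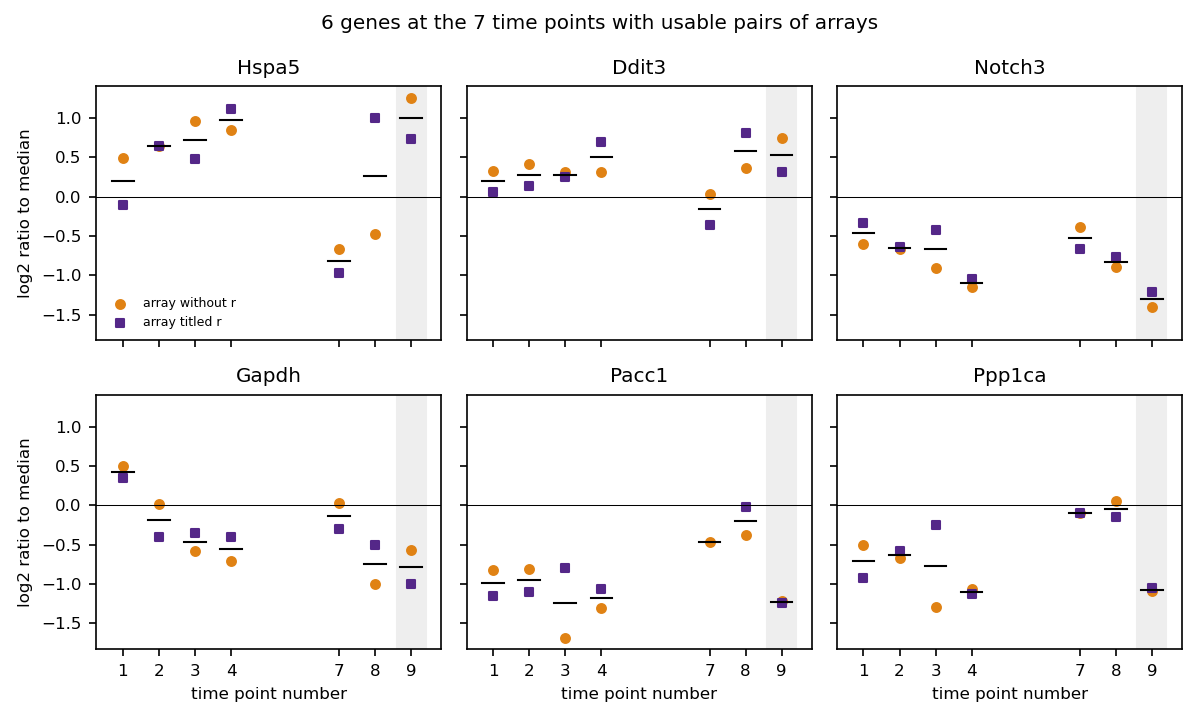
Log2 ratio to the array median by time point for 6 genes, with the array titled without r (circle), the array titled r (square) and their mean (bar), and time point 9 shaded. Time point 9 holds the lowest mean of Notch3 (-1.31) and the highest of Hspa5 (0.995), although the Hspa5 mean of time point 4 is close to it. Pacc1 and Ppp1ca also lie near their means of time point 4.

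The gene lists are described by counts from the test against the array median, in which 11.7% of all tested genes were called and the median of all genes was 0.04. Of 31 lists with 5 or more genes on both arrays, 24 held a called gene. With all 20 arrays in the fit, none of them did. A longer list holds a called gene more easily, and the count for lists of random genes was not computed. Against the 6 other time points, where 3 of 3581 genes (0.0838%) passed in limma, Hspa5 was the only list member called.

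**Figure D4:**
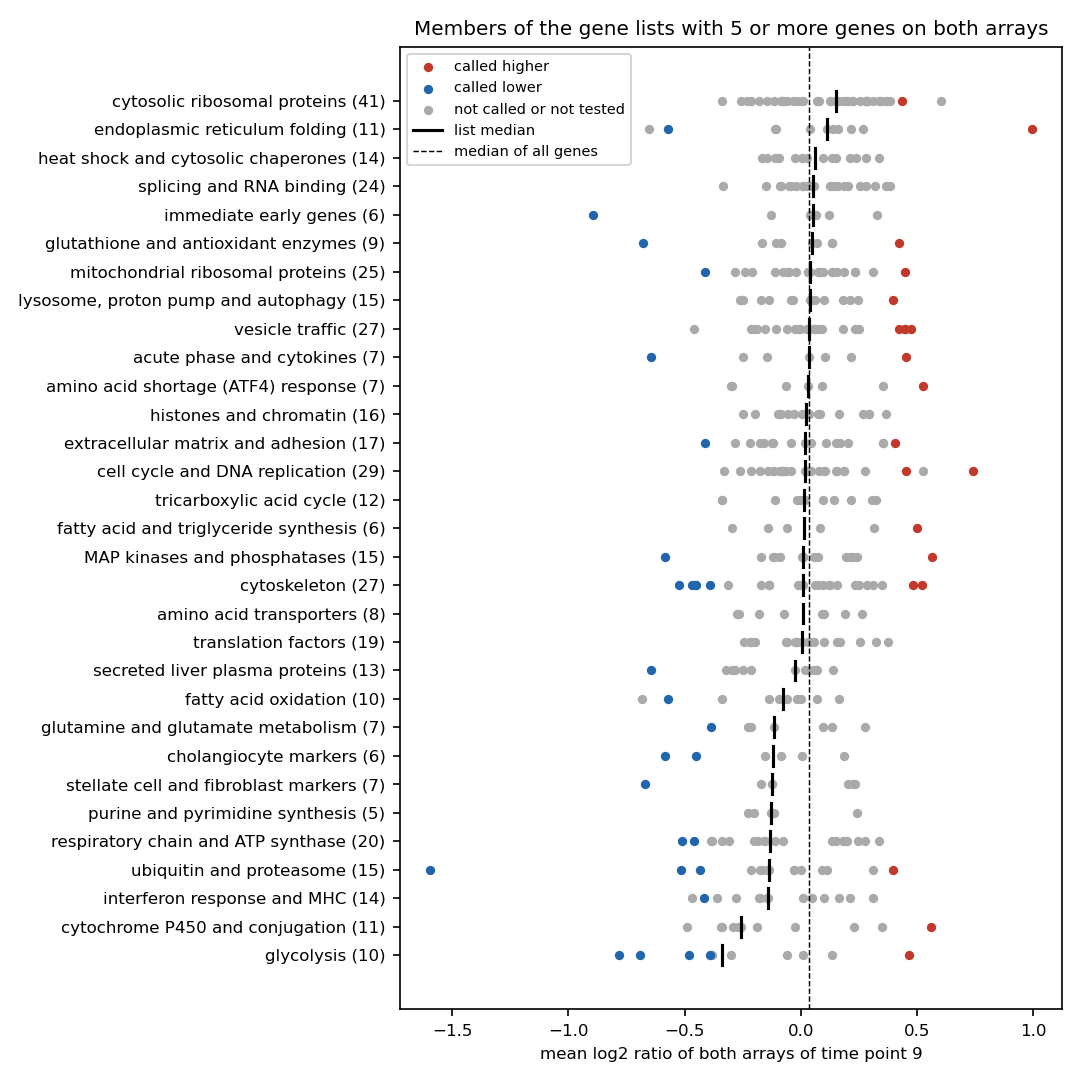
Mean log2 ratio at time point 9 of each member of the 31 gene lists with 5 or more genes on both arrays (number in brackets), with the list median (black bar) and the median of all genes (dashed line, 0.04). Glycolysis has the lowest median, -0.34, and the cytosolic ribosomal proteins the highest, 0.15. On the first and second array these were -0.04 and -0.41 for glycolysis, and 0.17 and 0.02 for the ribosomal proteins.

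Of 10 glycolysis genes tested, 5 were called, 4 lower and 1 higher. The list median was -0.04 on the first array and -0.41 on the second, so its shift was seen mainly on 1 array. Gapdh, the dehydrogenase of glyceraldehyde phosphate, read -0.57 and -0.999. Pgam1, a phosphoglycerate mutase, read -0.81 and -0.57, and the triose phosphate isomerase Tpi1 -0.29 and -0.49. The phosphofructokinase Pfkl read 0.21 and -1.17, so its call rests on the second array. Aldoa, an aldolase, was called higher at 0.57 and 0.36. The lactate dehydrogenase Ldha read -0.43 and -0.33 and missed the threshold with an adjusted p of 0.0518 in limma.

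Gapdh and Ldha were spotted many times. All 16 Gapdh spots on the first array were below the median, from -1.15 to -0.16 (SD 0.273), as were all 11 on the second, from -1.12 to -0.82 (SD 0.091). The 15 Ldha spots of the first array ran from -0.63 to -0.29 (SD 0.079) and the 5 of the second from -0.52 to -0.15 (SD 0.148). The wider spread was on the first array for Gapdh and on the second for Ldha. Spots of 1 gene share the RNA and are no replicates of the condition.

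The endoplasmic reticulum list had 11 genes on both arrays and 10 tested, with 1 called higher and 1 lower. Beside Hspa5, the disulfide isomerase subunit P4hb was lower, at -0.58 and -0.56 (adjusted p = 0.00207 in limma). Edem1, which directs misfolded glycoproteins to degradation, read -0.72 and -0.59 but had too few values on other arrays to be tested. The translocon subunits Sec61b, at 0.08 and 0.35, and Sec61g, at 0.14 and 0.18, were not called. In this list only Hspa5 was called higher.

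Of the amino acid shortage list, 6 genes were tested and 1 was called. Ddit3, the stress factor CHOP, read 0.74 and 0.31 (mean 0.53, SE 0.141, adjusted p = 0.00574 in limma). That call held in 14 of 17 alternatives. It was lost with all 20 arrays in the fit, with the 2 arrays of time point 9 alone, and without the first array, which left 0.31. In limma Ddit3 was not called against the other time points (0.24, adjusted p = 0.626) or time point 8 (-0.06, adjusted p = 0.991). The growth inhibitor Sesn2 read 0.50 and 0.21 and missed the threshold (adjusted p = 0.0749). Cebpb read -0.16 and -0.43, and the tRNA synthetases Sars and Nars -0.35 and -0.25, and 0.00 and 0.06. No array gave a value for Asns, the asparagine synthetase, or Glul, the glutamine synthetase. The carrier Slc38a2 was not measured at time point 9, and the glutamine carrier Slc1a5 has -0.02 on the first array only.

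Of 7 glutamine and glutamate enzymes, Phgdh, which begins serine synthesis, was called lower at -0.48 and -0.29, with an adjusted p of 0.0499 in limma that lies at the threshold. Glud1, the glutamate dehydrogenase, read 0.10 and 0.09. Of 7 tested amino acid transporters, limma called 0, and 0 had an unadjusted p under 0.05. Slc7a5, a carrier of large neutral amino acids, was uneven at 0.49 and 0.04, and its partner Slc3a2 read 0.02 and 0.16.

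The tricarboxylic acid cycle had 0 of 12 tested genes called in limma (4 at an unadjusted p under 0.05, 2 in each direction), with means from -0.34 to 0.33. Both Fh1, the fumarase, at -0.40 and -0.28, and Mdh1, the cytosolic malate dehydrogenase, at -0.36 and -0.32, missed the threshold. In the respiratory chain 2 of 18 tested genes were lower, the complex I subunits Ndufs8 (-0.48 and -0.54) and Ndufa3 (-0.43 and -0.49). Of 8 genes of fatty acid oxidation, Etfa, an electron carrier, was lower at -0.56 and -0.58. In lipid synthesis 1 of 6 was higher, the lipase-like Pnpla3 at 0.62 and 0.38.

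The proteasome list had 4 of 13 tested genes called. Psmb2, a subunit of the catalytic core, was lower at -0.46 and -0.41. Psmd11 was called lower with -0.03 and -1.0, a call that rests on the second array, and Psmd1 was higher at 0.32 and 0.47. The members called were thus not of one direction. Psmd2 was far from the rest of its list, whose other means lay between -0.52 and 0.40.

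The cytoskeleton list had 7 of 27 genes called. Of these, 5 were lower, among them the tubulins Tuba1b (-0.58 and -0.47) and Tubb5 (-0.39 and -0.39), the keratin Krt19 (-0.35 and -0.55) and Tmsb10, which binds actin monomers (-0.29 and -0.65). The other two, the actin crosslinker Actn4 (0.67 and 0.37) and the tubulin Tubb2b (0.50 and 0.47), were higher. The vesicle traffic list had 4 of 24 called (16.7%, against 11.7% over all genes), all higher. Copz2, called lower, is no member of the list as drawn up, although it belongs to a vesicle coat. The 4 genes were Sec31a of the COPII coat (0.49 and 0.46), Copb2 of the COPI coat (0.46 and 0.39), and the small GTPases Rab8a (0.53 and 0.37) and Arl1 (0.57 and 0.33). With the 2 arrays of time point 9 alone, where 21 genes were called higher, none of these 4 was.

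Among the 31 lists, cytosolic ribosomal proteins had the highest median, 0.15, but 1 of 40 tested genes called, Rps24 at 0.62 and 0.25. Their median was 0.17 on the first array and 0.02 on the second, so the shift was seen mainly on 1 array. Rpl9 read 0.60 and 0.61 and was not tested. Of 17 translation factors, 23 splicing factors, 14 cytosolic chaperones and 14 histone and chromatin genes, limma called 0, and 2, 5, 2 and 3 had an unadjusted p under 0.05. Of 25 cell cycle genes, Ndc80 and Rfc1, a clamp loader subunit (0.38 and 0.53), were higher.

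Antioxidant enzymes had Gpx3, a secreted glutathione peroxidase, lower at -0.64 and -0.72 and the glutathione transferase Gsta4 higher at 0.52 and 0.33, of 8 tested. Fgb was the only one called of 12 secreted liver proteins, at -0.71 and -0.58. The immediate early factor Fosb was lower at -0.78 and -1.01. Among kinases, Map2k6, an activator of p38, was lower (-0.56 and -0.61) and Map4k4 higher (0.61 and 0.52). The cytokine Csf1 was higher at 0.45 and 0.46. Of 8 tested genes of cytochrome P450 and conjugation, 1 was called, Aldh2, an aldehyde dehydrogenase of mitochondria, higher at 0.73 and 0.39. It ran against its list, whose median was -0.255. Of the 11 members on both arrays, 7 were below the median on both and 2 above.

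Markers of liver cell types give ratios here and no levels, so the cell type itself cannot be read from them. Of 20 hepatocyte markers 4 were measured on both arrays, and Foxa1 was called lower at -0.85 and -0.20. Alb, Afp and Ttr were not among them. Of 7 stellate cell and fibroblast markers Pdgfrb was called lower (-0.62 and -0.72). In that list 3 markers were above the median on both arrays and 3 below, Pdgfrb among them. Of 6 cholangiocyte markers Cd24a (-0.63 and -0.54) and Krt19 were called lower, with 4 below the median on both arrays and 1 above. Aif1 was the called member of 2 tested macrophage markers, the other being C1qc at 0.31 and -0.02. A further macrophage marker on both arrays was not tested and had a mean of -0.235. Neither of the endothelial markers Cdh5 and Kdr was called. The part of all these markers in the other results was not tested.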

How the data were processed

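The authors deposited 1 value per probe and array, with no counts, intensities or processing notes. The authors deposited these log ratios already formed from both dyes and, as assumed here, on a log2 scale. The background correction and normalization behind them are not stated in the labels, whose protocols record reverse transcription of 10 ug of total RNA with Cy-labelled dCTP. Probe symbols came from the platform annotation and were set against RefSeq (14718 of 17280 probes had 1 symbol). Each array was centred on its median and probes of a gene were averaged. Means per time point were fitted with limma 3.58.1 in R 4.3.3 over 14 arrays, tested against 0, against the 6 other time points and against time point 8, with Benjamini-Hochberg adjustment at 0.05, and tried on simulated data. The number of arrays limits the precision. Genes named are the 12 highest and 12 lowest called against 0, up to 8 and 8 against the other time points, up to 5 and 5 against time point 8, up to 4 called members of each list and a few fixed genes, with a few others named after their values were seen. The members and lists were chosen with earlier results of these data known. Equal replicate numbers were not taken as a pairing of the arrays. Alternatives are in the closing section.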

Additional observations from a re-analysis of the deposited data

Results flagged for a closer look

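Some genes had ratios at time point 9 that differed from those at other time points in limma's test of the difference. Minus the mean of the 6 other time points, 3000002C10Rik had -0.72, Hspa5 0.67 (0.665) and probe 10897 -0.66 (-0.665). Minus time point 8, the differences were -1.03 for Pacc1, -1.02 for Ppp1ca and Gdf1, -1.09 (-1.085) for Copz2, which had a single array at time point 8, -0.84 (-0.835) for Acrbp, -0.87 (-0.865) for probe 13598 and -0.82 (-0.815) for probe 17148. Over the alternatives, Gdf1 passed in 16 of 17, Pacc1 in 13 of 16, Ppp1ca in 13 of 17, Copz2 in 8 of 15, Acrbp in 8 of 17, probe 13598 in 9 of 17 and probe 17148 in 5 of 17. Against the 6 other time points, 3000002C10Rik passed in 9 of 16, probe 10897 in 8 of 15 and Hspa5 in 6 of 16.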

How the results depend on the processing

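Counts are given as higher and lower genes. Against the median (224 and 249), they were 1672 and 85 without centring, 185 and 122 after quantile normalization of all 20 arrays, 0 and 1 with all 20 arrays (330 and 258 unadjusted), 21 and 79 with the arrays of time point 9 alone, 214 and 107 among genes on all 14 arrays, and 8 to 55 and 69 to 91 without an array of time point 9. Quantile normalization of the 14 arrays, added after the version over 20 had been seen, gave 362 and 329 and kept all 473 calls, against 273 kept with 20 arrays and 376 with centred blocks. Against the 6 other time points (1 and 2), they were 0 and 1 without centring, 5 and 0 after quantile normalization of 20 arrays (158 lower unadjusted), 0 and 6 of 14 arrays, 0 and 0 with centred blocks (188 and 336 unadjusted), 0 and 0 with all 20 arrays (54 and 71), 0 and 1 among genes on all 14 arrays, 3 and 7 with each probe alone, and 0 to 4 and 0 to 2 without an array of time point 9. Leaving out a time point, also added after seeing the data, gave 0 and 0 without time point 1 or 2, 4 and 2 without 3, 5 and 4 without 4, 1 and 5 without 7 and 6 and 23 without 8. Against time point 8 (0 and 7), they were 5 and 5 after quantile normalization of 20 arrays, 2 and 7 of 14, 0 and 2 with centred blocks, 0 and 0 with all 20 arrays (48 and 41 unadjusted), 0 and 3 without the filter, 0 and 4 among genes on all 14 arrays, 0 and 3 without time point 1, 1 and 9 without time point 7, 0 to 3 and 5 without an array of time point 9, and 0 to 2 and 3 to 5 without an array of time point 8. Pfkl ran from -1.17 without the first array of time point 9 to 0.21, a reversed sign, without the second. The lists with a called gene numbered 24, and 0 with all 20 arrays. The correlation of the arrays ran from 0.581 to 0.666. With the replicate block the counts were 221 and 250, 1 and 2, and 0 and 7, with 468 calls shared. The differences between the 2 arrays of a time point correlated across genes by -0.432 to 0.332 over 21 pairs of time points. Their median was -0.05, and 6 exceeded 0.1. These values cannot show whether an array titled r is another flask or a repeat hybridisation. The numbers were not taken as a pairing. The cause of these shifts was not tested. The spread of 2 arrays, unknown depth and the unknown hour of sampling limit what these values show.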
